A study of Mus musculus with 16 samples.

Results

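The cardiac sarcomere and Z-disc structural genes described here are 31 genes, found in the deposited tables by their symbols, among 24371 genes in all. They comprise 5 core thin filament genes, 6 genes of the thin filament ends and the nebulin family, 6 genes of titin, the thick filament and the M-band, 10 Z-disc genes, and 4 genes of sarcomere assembly and the desmin intermediate filament. Bulk RNA was sequenced from 16 mouse hearts labelled as HFpEF, a form of heart failure in which the ejection fraction is preserved, which was modelled over 12 weeks with a high-fat diet and the nitric oxide synthase inhibitor L-NAME. The series asks what the metabolite succinate and its receptor GPR91 do in these hearts. Every group carried the HFpEF model, and no group without it was analysed here. Floxed hearts (genotype Gpr91fl/fl) had loxP sites around both copies of the receptor gene, with no recombinase named. Cre hearts (Myh6Cre Gpr91fl/fl) had the same alleles plus a Cre recombinase under the Myh6 promoter, which is active in cardiomyocytes, so other heart cells would keep the gene. The controls therefore lacked the Cre transgene as well as its effect on the receptor gene, and effects of Cre itself cannot be told apart from effects of the deletion. Hearts of both genotypes came with succinate and without it, in 4 libraries per group; for succinate, the dose, route and duration are not given in the sources used here. The labels give no age and do not say that replicates were separate animals, and p-values then speak only of the spread among the libraries, which may be technical.

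The sarcomere is the contractile unit of striated muscle: actin-based thin filaments, regulated by tropomyosin and the troponin complex, slide along myosin thick filaments. Thin filaments are anchored in the Z-disc, thick filaments are joined at the M-band, and the giant protein titin runs between the Z-disc and the M-band as a spring. In the heart, many of these genes are known targets of serum response factor (SRF), which binds the CArG box, and of myocyte enhancer factor 2 (MEF2) proteins, and inherited variants in several of them cause cardiomyopathy.

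Promoters were available for 25 of the 31 genes, as 32 windows running from 250 bases before to 50 bases after an annotated start (RefSeq, GRCm38.p6). The CArG box was searched on both strands in the form that begins with CC, ends with GG and has 6 A or T bases between, and it was present for 4 genes, Actc1, Ldb3, Myom1 and Nebl. It stood in 15.6% of the genes' windows and in 1.63% of all 32851 windows of the table. The MEF2 site was searched in the form that begins with CTA, ends with TAG and has 4 A or T bases between, and it was also present for 4 genes, Mybpc3, Myoz2, Synpo2l and Ttn, in 12.5% of the genes' windows against 0.557% of all windows. The TATAAA box on the sense strand was present for Actc1 only among the 25 genes, in 3.13% of their windows against 8.32% of all. The matches are shown because Srf and Mef2d were themselves among the genes that passed the test for succinate in floxed hearts, and because Synpo2l was the gene of the 31 that changed most. A match describes the letters in the window and was not tested as a binding site. Each sequence below runs 5′ to 3′ on the gene's own strand, with the matched motif in capitals, and the positions count from the annotated start.

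The Synpo2l sequence is the whole window upstream of 1 of its listed starts, at chr14:20668355-20668604 on the minus strand, with its MEF2 match at -109 to -100.
Synpo2l: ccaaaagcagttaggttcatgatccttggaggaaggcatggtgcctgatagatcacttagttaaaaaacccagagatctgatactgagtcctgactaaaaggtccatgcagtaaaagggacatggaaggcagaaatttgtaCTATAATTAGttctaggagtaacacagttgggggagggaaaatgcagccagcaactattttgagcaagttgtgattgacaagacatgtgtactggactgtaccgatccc
The other MEF2 matches were in Mybpc3 (chr2:91118029-91118088, plus strand, match at -90 to -81), Myoz2 (chr3:123034988-123035045, minus strand, -33 to -24) and Ttn (chr2:76982679-76982738, minus strand, -166 to -157).
Mybpc3: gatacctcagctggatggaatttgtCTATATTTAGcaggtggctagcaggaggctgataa
Myoz2: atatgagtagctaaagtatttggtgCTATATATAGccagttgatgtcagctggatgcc
Ttn: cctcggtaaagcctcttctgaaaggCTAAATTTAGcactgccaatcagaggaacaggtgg
The CArG matches were in Actc1 (chr2:114052888-114052947, minus strand, match at -47 to -38), Ldb3 (chr14:34588682-34588741, minus strand, -109 to -100), Myom1 (chr17:71019433-71019492, plus strand, -99 to -90) and Nebl (chr2:17462984-17463043, minus strand, -162 to -153).
Actc1: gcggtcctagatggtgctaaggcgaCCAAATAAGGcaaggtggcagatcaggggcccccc
Ldb3: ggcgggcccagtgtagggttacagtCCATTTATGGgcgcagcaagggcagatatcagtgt
Myom1: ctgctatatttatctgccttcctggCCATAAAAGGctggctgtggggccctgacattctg
Nebl: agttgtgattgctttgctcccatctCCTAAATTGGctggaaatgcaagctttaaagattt
The Ldb3 site also lies at -35 to -26 from a second annotated start of the gene and is printed once.

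Libraries held 27835235 to 34700996 counts each, and 14607 genes passed the filter on low counts, among them all 31 sarcomere and Z-disc genes. These 31 genes took 4.40% to 5.15% of all counts. Mitochondrially encoded genes took 23.5% to 27.7%. The 8 markers of ventricular cardiomyocytes were all detected, with summed levels of 44782 to 67253 CPM (counts divided by the library total and scaled to a common size) over the 16 libraries. Sucnr1, the current symbol of the floxed gene Gpr91, had 0 to 21 counts per library, with 6 counts in total in floxed hearts, 14 in floxed hearts with succinate, 32 in Cre hearts and 31 in Cre hearts with succinate. Its counts were thus not lower in the libraries labelled Cre, and at this depth they do not check the genotype labels.

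Levels of the 31 genes, as FPKM (counts scaled by library total and by gene length), differed by 37509.5-fold from the lowest to the highest. The highest mean over the 16 libraries was that of cardiac actin, Actc1, at 5664 ± 727 FPKM (SD, n = 16). It was followed by troponin T, Tnnt2, at 4213 ± 308, troponin C, Tnnc1, at 2491 ± 361, troponin I, Tnni3, at 1977 ± 318, and tropomyosin, Tpm1, at 1191 ± 87.0. These 5 core thin filament genes made up 73.6% of the summed FPKM of the 31. Counts of Actc1 are uncertain to the extent that reads could be assigned to its near-identical relative Acta1, and how such reads were handled is not known here.

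The Z-disc genes came next and were spread widely. The titin cap gene Tcap had 906 ± 265 FPKM, the calcineurin-binding Myoz2 738 ± 106, the actin crosslinker Actn2 (alpha-actinin) 649.99 ± 63.1, Ldb3 126 ± 13.5, the actin-binding Nexn 108 ± 8.40 and Pdlim5 65.2 ± 8.19. Below them stood Synpo2l at 30.1 ± 14.0, Mypn (myopalladin) at 25.6 ± 4.37, Myot (myotilin) at 17.2 ± 3.10 and Pdlim3 at 6.78 ± 1.26. Synpo2l had the widest spread for its level among these 10, and its group means differed by 2.44-fold from lowest to highest.

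Desmin, Des, the intermediate filament that links Z-discs, had 763 ± 78.5 FPKM, and myosin-binding protein C, Mybpc3, 844 ± 92.0. The M-band genes Myom2 and Myom1 had 300.3 ± 39.1 and 253 ± 24.2, and the thin filament elongation factor Lmod2 371 ± 50.5. The lysine methyltransferase Smyd1 had 121 ± 13.4, the pointed-end cap Tmod1 56.6 ± 6.24 and the myosin chaperone Unc45b 55.97 ± 8.37. Titin, Ttn, had 31.1 ± 5.28 FPKM over a gene length of 117640 bases, which came from 70982 to 146372 counts per library. Lmod3 (31.1), Cap2, which binds actin monomers (30.7), Nebl (12.1), Obsl1 (10.6) and Tmod4 (5.17 FPKM) were lower. The skeletal muscle paralogs Myom3, at 0.419 ± 0.122 FPKM, and Neb (nebulin), at 0.151 ± 0.0677 FPKM, stood lowest, with 48 to 139 and 38 to 243 counts per library. Of the 31 genes, 16 had a mean over 100 FPKM, and neighbours in this order often overlapped between libraries.

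**Figure D1:**
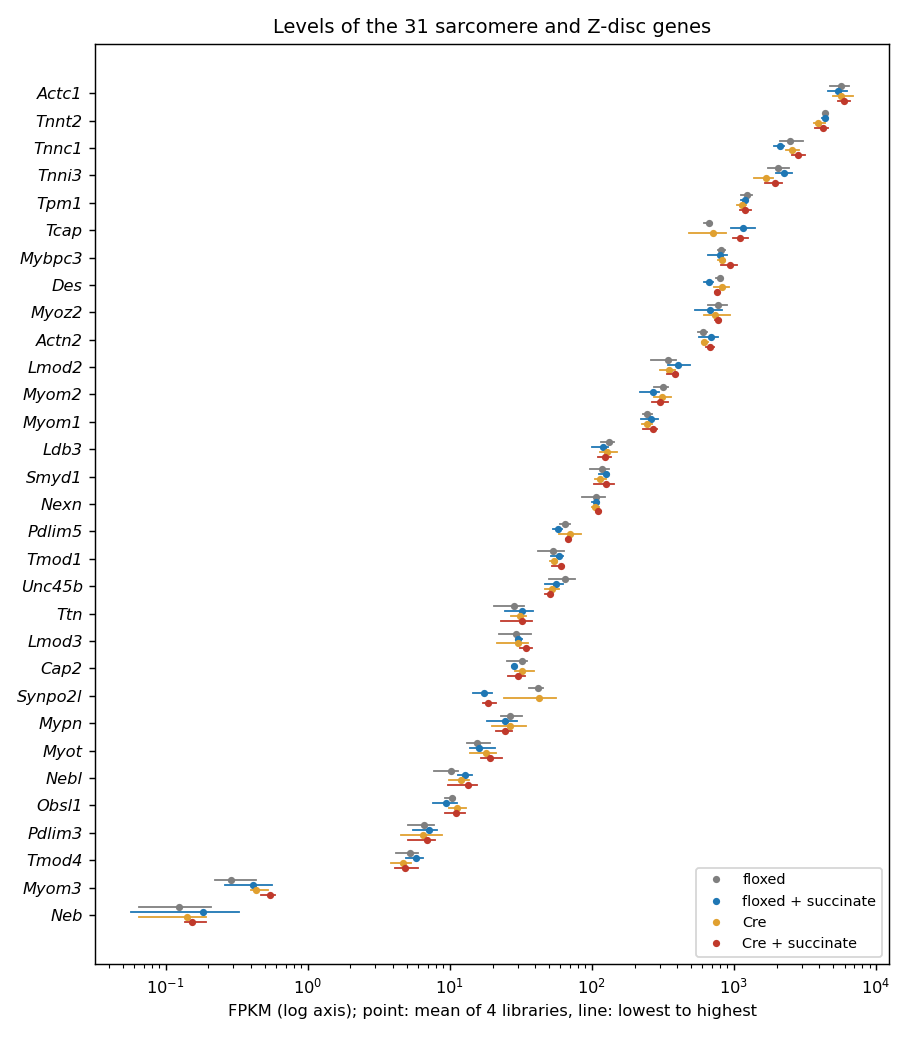
FPKM on a log axis for each of the 31 genes in the 4 groups, with the point at the mean of 4 libraries and the line from the lowest to the highest library. For 27 genes the highest and lowest group means differ by at most 1.34-fold; the ranges with and without succinate separate in both genotypes for Tcap, which is higher with succinate, and for Synpo2l, which is lower.

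Of the 31 genes, 2 changed with succinate in floxed hearts, both of the Z-disc. Tcap rose 1.81-fold and Synpo2l, a Z-disc and actin-associated protein of the synaptopodin family, fell 2.35-fold, while 29 of the 31 genes did not pass the test. The 2 called genes are 6.45% of the 31; over all 14607 tested genes, 13.1% were called in this comparison, 7.48% higher and 5.64% lower (edgeR quasi-likelihood test, Benjamini-Hochberg adjusted p under 0.05). The median log2 fold change was 0.06 over the 31 genes and 0.00 over all tested genes, and 19 of the 31 had a positive value.

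Synpo2l stood at 256, 239, 202 and 245 CPM in replicates 1 to 4 of floxed hearts and at 110.4, 95.9, 99.999 and 81.6 CPM in floxed hearts with succinate. Every floxed library without succinate was above every one with it. The group means were 236 ± 23.2 and 97.0 ± 12.0 CPM (SD, n = 4). The log2 fold change was -1.23 ± 0.17 (SE), with an adjusted p of 0.000358 by edgeR's quasi-likelihood test.

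In Cre hearts Synpo2l stood at 312, 242, 259 and 135 CPM without succinate and at 119.5, 96.2, 105 and 98.5 CPM with it. The groups again did not overlap, although replicate 4 of the untreated Cre hearts lay closest to the treated ones. Synpo2l fell by 1.13 ± 0.17 on the log2 scale (SE), or 2.19-fold, with an edgeR adjusted p of 0.00667. Averaged over both genotypes, 8 libraries against 8, it fell by 1.18 ± 0.12, with an adjusted p of 1.3e-05. The difference between the succinate effects in Cre and floxed hearts, tested as an interaction, was 0.10 ± 0.24 (log2, SE; edgeR adjusted p = 0.981).

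Tcap encodes telethonin, a small protein that caps the ends of titin in the Z-disc. It stood at 585, 666, 619.7 and 645 CPM in floxed hearts and at 903, 1172, 986 and 1332 CPM in floxed hearts with succinate. All 4 treated libraries were above all 4 untreated ones, and the treated ones were spread more widely. The means were 629 ± 34.7 and 1098 ± 192 CPM (SD, n = 4), and the log2 fold change was 0.86 ± 0.17 (SE; edgeR adjusted p = 0.00434).

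In Cre hearts Tcap stood at 459, 840, 676 and 711 CPM without succinate and at 935, 1200.1, 929.8 and 1086 CPM with it. These groups did not overlap either. The log2 fold change was 0.66 ± 0.17 (SE), and its edgeR adjusted p of 0.0763 missed the threshold; it was 0.0143 by DESeq2, and 0.0428 in edgeR without replicate 2 of the untreated Cre hearts. Without their replicate 1 the log2 fold change was 0.48 and the adjusted p 0.231, the highest when 1 library was left out. Over the other settings the adjusted p ran from 0.0110 to 0.168, the last with only the groups compared in the fit. Averaged over the genotypes Tcap rose by 0.76 ± 0.12 (adjusted p = 0.000493), and the interaction was -0.20 ± 0.24 (adjusted p = 0.973).

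**Figure D2:**
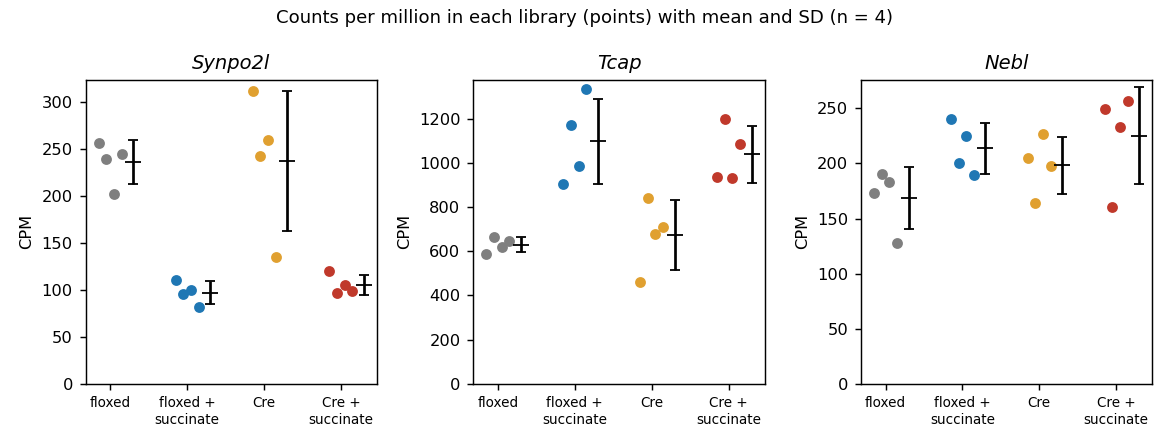
CPM in each library (points) for Synpo2l, Tcap and Nebl in the 4 groups, with the mean and SD of 4 libraries beside the points; the axes start at 0. Synpo2l is 81.6 to 119.5 CPM in all 8 succinate libraries and 135 to 312 CPM in the other 8, Tcap is 903 to 1332 against 459 to 840 CPM, and the Nebl groups overlap.

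In Cre hearts Synpo2l was the only gene of the 31 that passed for succinate in the edgeR test, which is 3.23% of them; 0.917% of all tested genes were called there, 0.602% higher and 0.315% lower. The median log2 fold change was 0.13 over the 31 genes and 0.01 over all tested genes, with 24 of 31 positive. Mybpc3, which had the third smallest p there after Synpo2l and Tcap, changed by 0.22 ± 0.11 (log2, SE; adjusted p = 0.361). Averaged over the genotypes, 3 of the 31 genes passed (9.68%), Synpo2l lower and Tcap and Nebl higher. Of all tested genes 19.0% passed, 10.6% higher and 8.45% lower, and 32.9% had an unadjusted p under 0.05, against 9 of the 31. These 3 succinate comparisons share libraries and are not independent of each other.

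Nebl encodes nebulette, the cardiac relative of nebulin that ties thin filaments to the Z-disc. It stood at 173, 190.0, 183 and 128 CPM in floxed hearts and 240.3, 200.4, 225 and 189.8 CPM with succinate, and at 205, 164, 227 and 198 CPM in Cre hearts and 249.9, 161, 233 and 257 CPM with succinate. The groups overlapped in both genotypes. The averaged log2 fold change was 0.31 ± 0.10 (SE; edgeR adjusted p = 0.0385). This call was lost when library totals replaced TMM factors (adjusted p = 0.0866), on the 3 FPKM settings (adjusted p 0.0910 to 0.108) and in 11 of the 16 fits that left out 1 library (adjusted p up to 0.0870). Within floxed hearts the value was 0.40 ± 0.14, with an edgeR adjusted p of 0.0720. That p was 0.0440 with limma voom, 0.0427 with the tilt covariate described below, and 0.0434 to 0.202 without 1 library, the lowest without replicate 2 of the Cre hearts with succinate.

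The other genes are given by role. In the core thin filament, none of the 5 genes passed in floxed hearts or in Cre hearts, and their log2 fold changes ran from -0.17 (Tnnc1) to 0.18 (Tnni3) in floxed hearts and from 0.09 (Tpm1) to 0.25 (Tnni3) in Cre hearts. For all 5 the 95% interval of the succinate effect lay within a 1.5-fold change in either direction, in both genotypes. In the 6 genes of thin filament ends and the nebulin family, every fold change was positive in both genotypes, with medians of 0.23 and 0.19 on the log2 scale, and none passed within a genotype. All 6 values were also positive in both genotypes with library totals; without untreated floxed replicate 4, 5 of the 6 were positive in floxed hearts. The Tmod and Lmod genes, which set thin filament length at the pointed end, ran from 0.09 (Lmod3) to 0.26 (Lmod2) in floxed hearts.

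In the group of titin, the thick filament and the M-band none of the 6 genes passed with succinate, and the medians were 0.08 in floxed and 0.13 in Cre hearts. Ttn stood at 3478, 3914, 3545 and 2422 CPM in floxed hearts and at 4281, 3425, 4535 and 2904 CPM with succinate. These groups overlapped, and the log2 fold change was 0.23, with an edgeR adjusted p of 0.377. Of the 4 genes of assembly and the desmin filament none passed, with values from -0.21 (Des) to 0.15 (Smyd1) in floxed hearts. Des stood at 2536, 2294, 2444 and 2472 CPM in floxed hearts and at 2014, 2172, 2098 and 1879.6 CPM with succinate. Those groups did not overlap, but the fold change was small, and the adjusted p was 0.130.

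Because many values were close to 0, the 95% intervals are given as well. In floxed hearts the interval lay within a 1.5-fold change in either direction for 26 of the 31 genes (83.9%), against 53.8% of all tested genes; the exceptions were Myom3, Neb, Nebl, Synpo2l and Tcap. In Cre hearts it did so for 27 (87.1%, against 62.2% of all tested genes), with Myom3, Neb, Synpo2l and Tcap as the exceptions. The median standard error was 0.129 for the 31 genes and 0.145 for all tested genes in floxed hearts. A median does not show how many genes had wide intervals. Between untreated genotypes, where 0.110% of all tested genes were called, the shares were 90.3% and 64.2%. The part of the standard errors in these gaps was not tested. Myom3 and Neb had few counts and wide intervals. Myom3 in floxed hearts changed by 0.56 ± 0.23 (log2, SE; edgeR adjusted p = 0.121), and it passed with limma voom and without replicate 4 of the floxed hearts with succinate.

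**Figure D3:**
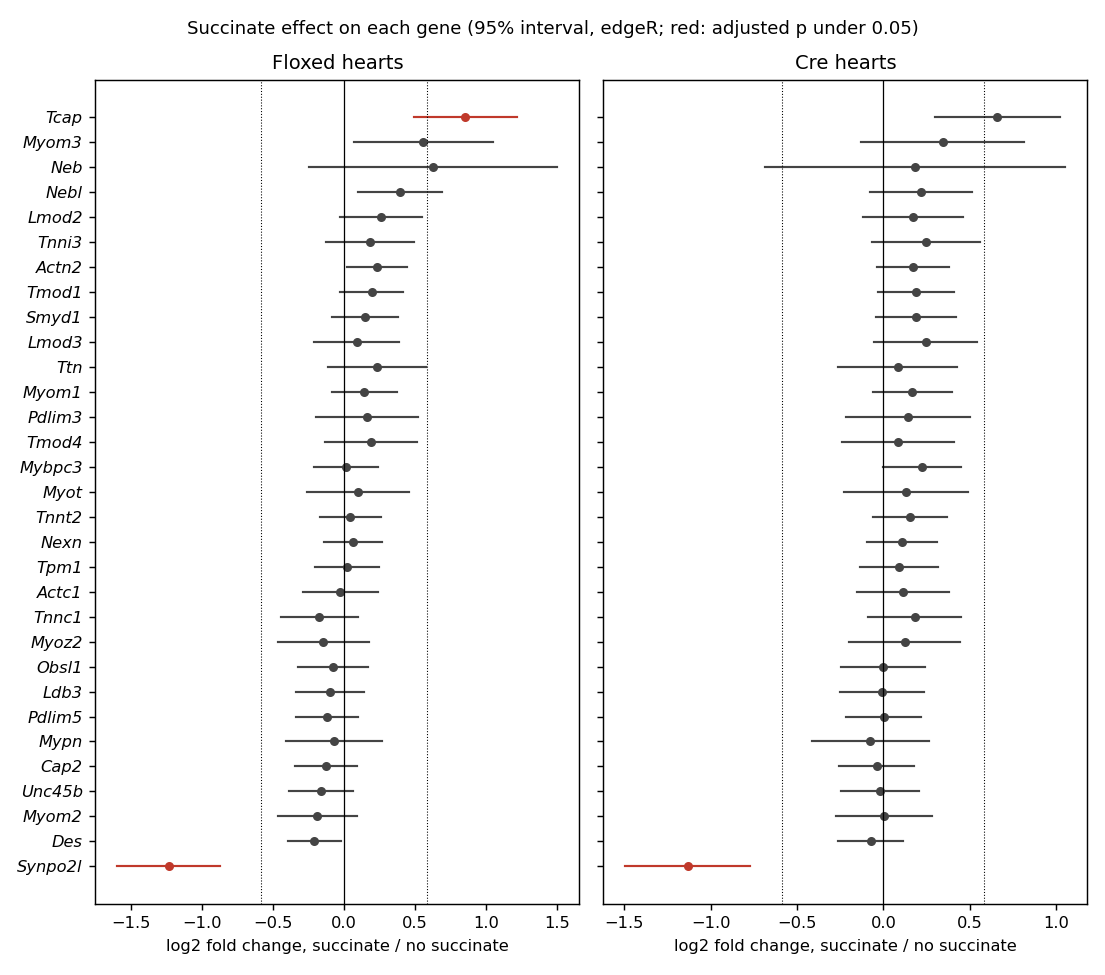
Log2 fold change with succinate for each of the 31 genes in floxed (left) and Cre hearts (right), with the 95% interval from the edgeR fit; red marks an adjusted p under 0.05 and the dotted lines mark a 1.5-fold change. Apart from Synpo2l, near -1.2, and Tcap, at 0.86 and 0.66, most intervals lie between the dotted lines.

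Comparing genotypes, none of the 31 genes passed the edgeR test, with succinate, without it, or averaged. Without succinate the median of Cre against floxed hearts was -0.01 (log2; 0.01 with library totals), 2 genes had an unadjusted p under 0.05 (8.75% of all tested genes did), and 0.110% of all tested genes were called after adjustment. The smallest adjusted p belonged to Unc45b, at -0.31 ± 0.11 (log2, SE; 0.395), followed by Myom3 at 0.57 ± 0.23 (0.497) and Tnni3 at -0.31 ± 0.15 (0.574). Of the 31 intervals, 28 lay within a 1.5-fold change (90.3%, against 64.2% of all tested genes), the exceptions being Myom3, Neb and Tnni3. DESeq2 and limma voom also called none of the 31 here.

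With succinate the median of Cre against floxed hearts was 0.02, 1 gene had an unadjusted p under 0.05 (11.1% of all tested genes did), and 0.691% of all tested genes were called after adjustment, 0.548% higher in Cre hearts. That gene was Tnnc1, the calcium sensor of the thin filament. It stood at 1334, 1541, 1508 and 1581 CPM in floxed hearts with succinate and at 1819, 2220, 1796 and 2041 CPM in Cre hearts with succinate. The groups did not overlap, but the log2 fold change of 0.37 ± 0.13 had an adjusted p of 0.250 in edgeR. Pdlim5 (0.21 ± 0.10, adjusted p = 0.473) and Mybpc3 (0.21 ± 0.11, adjusted p = 0.489) came next, and DESeq2 and limma voom called none of the 31.

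Averaged over succinate, 4 genes had an unadjusted p under 0.05 between genotypes, 2 in each direction, and none passed after adjustment in edgeR; 1.88% of all tested genes were called, 1.30% higher in Cre hearts, and 14.1% had an unadjusted p under 0.05. The smallest adjusted p was again that of Unc45b, which folds the myosin head. It stood at 261, 285, 235 and 188 CPM in floxed hearts and 201, 227, 233 and 176 CPM with succinate, and at 219.5, 175, 197 and 199.8 CPM in Cre hearts and 196, 176, 189 and 197 CPM with succinate. The highest values were in floxed hearts, and the ranges overlapped. The log2 fold change was -0.24 ± 0.08 (SE), with an adjusted p of 0.117 in edgeR, 0.0482 in DESeq2 and 0.0288 in limma voom. Without replicate 4 of the untreated floxed hearts, the lowest floxed library without succinate, the edgeR value was 0.0268. The adjusted p was up to 0.217 without 1 other library, 0.232 with library totals and up to 0.277 on log2(FPKM + 1). Myom3 (0.46 ± 0.16, adjusted p = 0.175) and Tnni3 (-0.28 ± 0.10, adjusted p = 0.212) followed.

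For the difference of the succinate effects between genotypes, none of the 31 genes passed in edgeR or had an unadjusted p under 0.05, and DESeq2 called none of them. Over all tested genes edgeR called 0, DESeq2 called 3, and 4.85% had an unadjusted p under 0.05. The genes of smallest p were Tnnc1 at 0.35 ± 0.18, Mybpc3 at 0.21 ± 0.15 and Myoz2 at 0.27 ± 0.22 (log2, SE; edgeR adjusted p = 0.970 for each). The standard error of this difference was larger than that of a single comparison, with a median of 0.183 over the 31 genes.

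Part of the spread between replicates followed gene length. For each library a length tilt was computed as the median log2 deviation of long genes (at least 6374 bases) minus that of short genes (at most 2334 bases), over 8809 genes with the 31 left out. It was defined after the data had been seen. The tilt was 0.044, -0.018, 0.011 and -0.309 in replicates 1 to 4 of floxed hearts, 0.251, -0.002, 0.200 and -0.256 in floxed hearts with succinate, 0.126, -0.122, 0.070 and 0.004 in Cre hearts, and 0.178, -0.260, 0.089 and 0.021 in Cre hearts with succinate. Thus 3 libraries in 3 different groups stood low, and the groups overlapped.

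Ttn, the longest gene, followed the tilt over the 16 libraries, with a Pearson r of 0.868 (permutation p = 5.0e-05, adjusted p = 0.00155 over the 31 genes) and a Spearman rho of 0.824 (permutation p = 0.00019). Without the 2 libraries farthest from the median tilt, floxed replicate 4 and replicate 2 of the Cre hearts with succinate, r was 0.749. Nebl also followed it, with r = 0.729 (rho = 0.706, permutation p = 0.00131 and 0.00304, adjusted p = 0.0135), and r = 0.535 without those 2 libraries. The short gene Myoz2 went the other way, with r = -0.803 (rho = -0.797, permutation p = 0.00016 and 0.00029, adjusted p = 0.00248) and -0.760 without the 2 libraries.

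Tnnc1, the shortest of the 31, had r = -0.675 (rho = -0.606, permutation p = 0.00476 and 0.0152, adjusted p = 0.0358), which became -0.415 without those 2 libraries. In all, 5 genes passed with a positive r, 3 with a negative r, and 23 did not pass. Length did not set the sign for every gene. Of the 3, Tpm1 has 5518 bases (r = -0.628). The short Actc1, at 1461 bases, had r = 0.402, and the long Neb, at 23717 bases, had r = 0.396. Neither of these 2 passed. Tcap and Synpo2l were among the 23, with r = -0.227 and -0.0523 over the 16 libraries. These values include the differences between groups. On deviations from the group means, r was -0.738 for Tcap and 0.290 for Synpo2l, so Tcap followed the tilt within groups. Across the 31 genes the Spearman correlation between gene length and r was 0.588, given as a description because the genes share the same libraries.

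**Figure D4:**
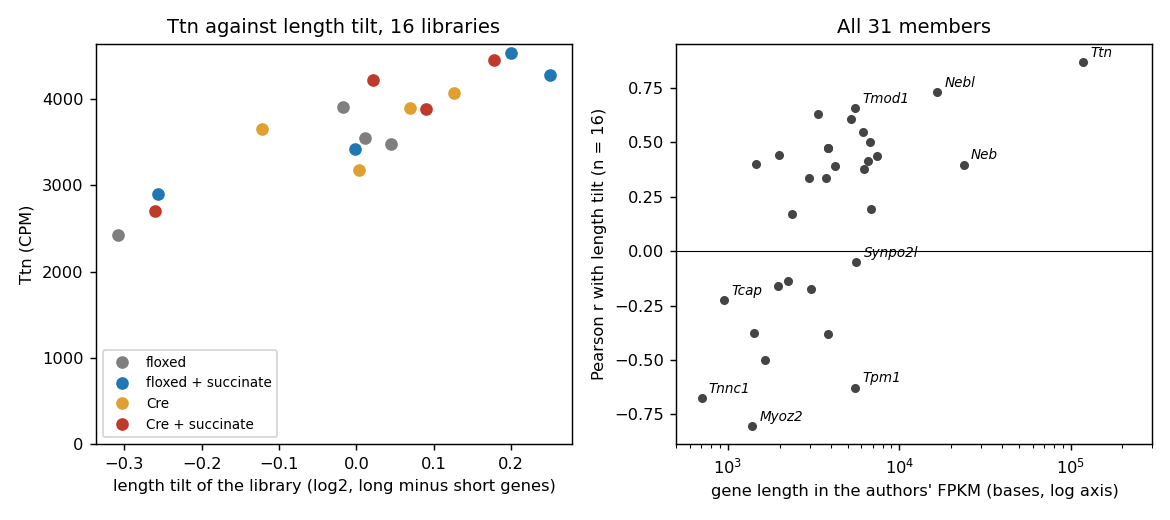
Left, Ttn in CPM against the length tilt of each of the 16 libraries, coloured by group; right, the Pearson r with length tilt of each of the 31 genes against its gene length on a log axis. Ttn is lowest in the 3 libraries of lowest tilt, which belong to 3 groups, and the long genes Ttn and Nebl stand at the top of the right panel while the short Tnnc1 and Myoz2 stand at the bottom.

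With the tilt as a covariate in the edgeR fit, an alternative added after seeing the data, the median standard error of the 31 genes went from 0.129 to 0.0965 for succinate in floxed hearts and from 0.129 to 0.0932 in Cre hearts. It became smaller for 27 of the 31 genes. In that fit Tcap passed in Cre hearts (0.66 ± 0.12, adjusted p = 0.0110), and 6 genes passed for succinate averaged over the genotypes, Actn2, Nebl, Synpo2l, Tcap, Tmod1 and Tnni3 (24.4% of all tested genes were called). For the genotypes averaged over succinate, 2 genes passed with the tilt in the fit (3.86% of all tested genes), Unc45b at -0.25 ± 0.06 (adjusted p = 0.0180) and Tnnc1 at 0.21 ± 0.06 (adjusted p = 0.0412).

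The 31 genes hold no myosin, so the other genes around the sarcomere were counted in 6 further lists. Over all tested genes, succinate calls were 13.1% in floxed hearts, 0.917% in Cre hearts and 19.0% averaged over the genotypes. Of 7 tested myosins of the thick filament, 1 rose and 2 fell with succinate in floxed hearts. These were Myh6, the fast adult heavy chain (0.69 ± 0.13, log2, SE), Myh7, the slow heavy chain (-4.03 ± 0.44), and Myh7b (-0.77 ± 0.20). In Cre hearts Myh6 rose by 0.56 ± 0.13 and Myh7 fell by 2.60 ± 0.41 in the edgeR test, while Myh7b did not pass. Reads that the counting could assign to either heavy chain are uncertain.

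Of 19 Z-disc signalling and stress-sensor genes, 12 fell and none rose with succinate in floxed hearts, with a list median of -0.48 (log2) beside 0.00 for all tested genes. The largest falls among those of smallest p were in Ankrd1 (-1.65 ± 0.17), a titin-binding ankyrin repeat protein induced by stretch, its relative Ankrd23 (-1.29 ± 0.14), the actin-binding Xirp2 (-1.05 ± 0.21) and the small heat shock protein Hspb1 (-0.97 ± 0.18). In Cre hearts only Ankrd1 passed in this list, at -0.89 ± 0.16, and the list median was -0.34. Of the 19 values 1 was positive there, against 2 in floxed hearts. For the difference of the succinate effects between genotypes, edgeR called no gene of this list or of the other lists. Averaged over the genotypes 15 of the 19 fell. The list also holds Myocd, a transcriptional coactivator and not a Z-disc protein, so the list's counts and medians are not of Z-disc genes alone. Ankrd1 was also higher in Cre than in floxed hearts with succinate, by 1.11 ± 0.16 (edgeR adjusted p = 0.00236).

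Of 18 genes of giant kinases, sarcomere turnover and assembly, 3 rose and 3 fell in floxed hearts. The muscle ubiquitin ligases Fbxo32 (1.03 ± 0.17) and Trim63 (0.60 ± 0.12) and Klhl31 (0.50 ± 0.10) rose, and the chaperone Hsp90aa1, a partner of Unc45b in myosin folding, fell by 1.31 ± 0.21. In Cre hearts Trim63 alone of these passed, at 0.59 ± 0.12. Of 24 genes of the costamere, intercalated disc and cortical cytoskeleton, 3 rose and none fell in floxed hearts. That share is close to the 13.1% called over all tested genes. The 3 were the desmosomal Dsg2 (0.99 ± 0.18) and Pkp2 (0.40 ± 0.09) and the laminin chain gene Lama2 (0.40 ± 0.11). None of the 24 passed in Cre hearts.

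Among 14 transcription factors of sarcomere genes, Mef2d (0.54 ± 0.12) and Foxo1 (0.37 ± 0.10) rose and Srf fell by 0.61 ± 0.13 in floxed hearts, and none passed in Cre hearts. The members whose windows hold a CArG box, shown above, did not pass for succinate within either genotype, and of those with a MEF2 site Synpo2l alone did. Their values in floxed hearts were -0.03 for Actc1, -0.10 for Ldb3, 0.14 for Myom1 and 0.40 for Nebl, and 0.02 for Mybpc3, -0.15 for Myoz2 and 0.23 for Ttn on the log2 scale.

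The list with the most calls between genotypes was that of skeletal or fetal sarcomere isoforms, of which 11 of 18 were tested. It also holds Atp2a1 and Casq1, which are calcium-handling genes and not sarcomere isoforms. Acta2 and Mybphl, also on it, are counted here as smooth muscle and atrial markers as well. The list's counts and medians are therefore not of skeletal or fetal sarcomere isoforms alone. With succinate 7 of the 11 were higher in Cre hearts and none lower, with a list median of 1.66 (log2). Without succinate 3 were higher and none lower, and averaged 8 were higher. Over all tested genes 0.691%, 0.110% and 1.88% were called in these 3 comparisons. Some of the 11, among them Tnni1 and Tnnt3, passed the low-count filter only through the Cre libraries. Tnnt3 had 4 to 12 counts per library in floxed hearts with or without succinate. Such genes could hardly come out lower in Cre hearts, so the direction and the median are partly set by the filter. More genes had any count in every Cre library than in every floxed one. Their number was 18067 to 18245 in floxed hearts and 18038 to 18376 with succinate. In Cre hearts it was 18537 to 19130, and 18657 to 19127 with succinate. The part of this difference in the calls was not tested. The 4 of smallest p with succinate were Atp2a1, which encodes a fast-fibre calcium pump (5.18 ± 0.25), the fast troponins Tnni2 (2.43 ± 0.34) and Tnnt3 (2.68 ± 0.44), and Mybpc2 (0.93 ± 0.14). The cardiac counterparts among the 31 genes, Tnni3, Tnnt2 and Mybpc3, did not pass. The levels stayed apart: the slow troponin gene Tnni1 made up 0.000747% to 0.00158% of the summed FPKM of Tnni1 and Tnni3 in floxed hearts, 0.000530% to 0.00163% in floxed hearts with succinate, 0.00932% to 0.0175% in Cre hearts and 0.00312% to 0.0104% in Cre hearts with succinate. The genotypes did not overlap, but each floxed share rests on 1 to 3 counts of Tnni1 and each Cre share on 6 to 22. For Acta1, skeletal actin, the share of the summed FPKM of Acta1 and Actc1 was 3.03% to 7.39% in floxed hearts and 4.23% to 15.03% in Cre hearts, which overlapped. With succinate it was 2.65% to 4.05% and 7.59% to 11.3%, which did not.

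**Figure D5:**
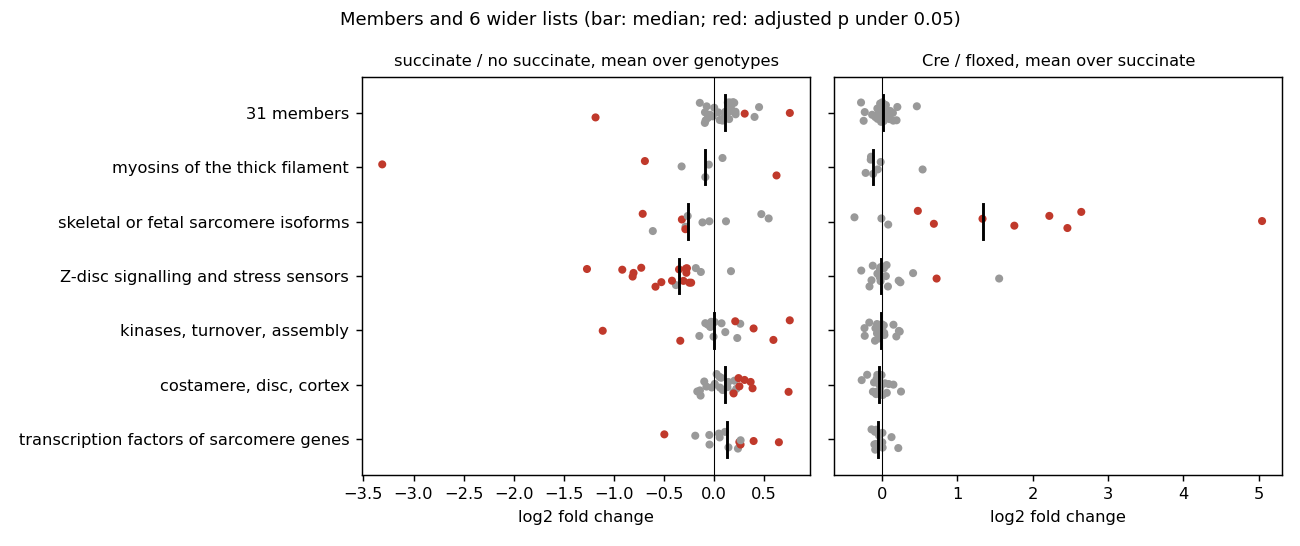
Log2 fold change of each tested gene in the 31-gene set and 6 further sarcomere lists, for succinate averaged over genotypes (left) and Cre against floxed hearts averaged over succinate (right); points are genes, black bars medians, and red an adjusted p under 0.05 in edgeR. With succinate most Z-disc signalling and stress-sensor genes lie below 0, 15 of 19 of them in red, while the 31 genes centre near 0. Between genotypes 8 of the 11 tested genes on the list of skeletal or fetal isoforms are red and higher. Some of the 11 passed the low-count filter only through the Cre libraries.

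Markers of cell types moved with some of these groups. Calls for succinate over all tested genes were 13.1% in floxed hearts and 0.917% in Cre hearts. With succinate, the summed level of the 8 ventricular cardiomyocyte markers was 60458 to 67253 CPM against 50089 to 57755 CPM in floxed hearts, and 57805 to 65127 against 44782 to 54009 CPM in Cre hearts; 3 of the 8 rose in floxed and 1 in Cre hearts. Myh6 is on that list and made up much of the rise in these sums. It stood at 13292 to 18589 CPM in floxed hearts and 19543 to 26988 CPM with succinate. In Cre hearts it stood at 13500 to 17389 CPM, and at 19898 to 25089 CPM with succinate. The 7 macrophage markers summed to 140 to 234 CPM with succinate and 249 to 374 without it in floxed hearts, where 4 of 7 fell, and to 174 to 320 and 279 to 380 CPM in Cre hearts, where none passed. Neutrophil markers fell for 2 of 3 tested genes in floxed hearts, as did 1 of 7 endothelial markers, the latter close to the share over all tested genes. The atrial markers, of which 2 of 7 were tested, summed to 172 to 467 CPM in floxed hearts and 64.6 to 91.1 CPM with succinate, where 1 of the 2 fell. In Cre hearts they summed to 355 to 1760 CPM and to 446 to 934 CPM with succinate, and neither passed. In bulk tissue, fewer cells of a type and less RNA per cell cannot be told apart, and the part of these shifts in the changes of Tcap, Synpo2l or the wider lists was not tested.

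Beside the isoforms that differed between genotypes, 4 of 10 skeletal muscle fibre markers were tested. With succinate 2 of them were higher in Cre than in floxed hearts, where 0.691% of all tested genes were called. The marker sum was 38.3 to 55.4 CPM in Cre hearts with succinate. It was 26.2 to 29.3 CPM in floxed hearts with succinate, a group with Myh1 at 0 counts. Some of these markers are also on the isoform list, among them Tnnt3, which passed the low-count filter only through the Cre libraries. The sums of the atrial markers with succinate, given above, also did not overlap between the genotypes. The part of either in the difference was not tested. No fibroblast or endothelial marker passed between genotypes within either treatment. Averaged over succinate, 1 of 7 fibroblast markers was higher in Cre hearts and no endothelial marker passed (1.88% of all tested genes were called). All 7 fibroblast markers had a positive value in each of the 3 genotype comparisons, with list medians of 0.31 without succinate, 0.40 with it and 0.30 averaged (log2). Adipocyte markers, none of which was tested, summed to at most 1.96 CPM in every library. Of the smooth muscle and pericyte markers 1 of 7 rose with succinate in Cre hearts and none passed in floxed hearts, and no red blood cell marker passed in any comparison.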

How the data were processed

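Bulk RNA-seq of 16 hearts in 4 groups of 4 was analysed from 2 tables. The authors deposited whole-number counts per gene and FPKM values; dividing the counts by FPKM and library total gave back a constant length for every gene. The tools named per the submitters' processing notes are DESeq2, HTSeq, HISAT2, fastp and R 3.2.0, with the GRCm39 build. Strandedness and multi-mapping rules are not given in the sources used here; reads from overlapping antisense genes cannot be told apart. Counts as deposited were tested with edgeR 4.0.16 (R 4.3.3; robust quasi-likelihood F-test, TMM, filterByExpr with a minimum count of 10, 1 mean per group, 12 residual degrees of freedom), with Benjamini-Hochberg adjustment over all 14607 tested genes and a threshold of 0.05. CPM is computed from the library total. Intervals cover 95%. Replicates differed by more than counting noise (at least 11.4 for chi-square divided by its degrees of freedom), and 3 counts correspond to 0.0865 to 0.108 CPM, for counting error only.

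The comparisons were succinate within each genotype and averaged, genotype within each treatment and averaged, and the interaction. The 31 genes and the further lists were chosen with earlier results of these data known. Full values were given for genes that passed in any comparison; where fewer than 3 passed, the 3 genes of smallest p were named, and up to 4 passing genes of each further list. Ttn, Des and the genes with promoter matches were named in addition, after their values were seen. The fitting code was tested on simulated data. Alternatives were DESeq2 1.42.0, limma 3.58.1 (voom with sample weights), RLE factors, library totals, other filters, only the groups compared, a replicate block, limma on log2(FPKM + 1) or log2(FPKM + 0.1), and leaving out each library; a length-tilt covariate and leaving out the 3 libraries of lowest tilt were added after seeing the data. Permutation tests of correlations used 100000 resamples and were two-sided. Promoter sequences are RefSeq's on GRCm38.p6, not the build of the counts.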

Additional observations from a re-analysis of the deposited data

Results flagged for a closer look

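In 7 of the 124 sets formed by 1 gene in 1 group of 4 libraries, a single library lay far from the other 3 for its group's range, by Dixon's test; about 1 in 20 such sets is marked by chance. Myom3 was 3.22 CPM in its highest floxed library, with the others at 1.64 to 1.90, and 3.90 CPM in its highest Cre library, with the others at 2.94 to 3.07. Neb was 4.58 CPM in its highest library of Cre hearts with succinate, with the others at 3.24 to 3.46; both genes had few counts. Lmod3 was 76.5 CPM in its highest library of floxed hearts with succinate, against 69.9 to 70.6. In Cre hearts with succinate Lmod2 was 662 CPM in its lowest library, against 779.9 to 795, Tmod1 was 287 CPM, against 344 to 353, and Pdlim5 was 450.3 CPM, against 471 to 474.

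The Tnnc1 values with succinate lay on opposite sides of the untreated means in the 2 genotypes: all 4 treated floxed libraries were below the untreated floxed mean, and all 4 treated Cre libraries were above the untreated Cre mean. The tested difference was 0.35 on the log2 scale and did not pass (edgeR adjusted p = 0.970).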

How the results depend on the processing

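No alternative reversed a called value. Of the 217 log2 fold changes of the 31 genes in 7 comparisons, 81 changed sign under some alternative; none of them was called, and the largest of them was 0.28 in size. Mybpc3 in floxed hearts with succinate went from 0.02 to -0.04 with the tilt covariate. The median of the 31 between untreated genotypes went from -0.01 (13 positive) to 0.01 (19 positive) with library totals, and for succinate in floxed hearts from 0.06 (19 positive) to 0.01 (16 positive) with library totals and to -0.00 (14 positive) on FPKM of at least 1. Of the calls of named genes under the alternatives, 571 kept their side of the threshold, 12 newly passed and 15 no longer passed. For succinate in floxed hearts the count called among the 31 went from 2 to 5 with limma voom (all tested genes 1917 to 2925). In Cre hearts it went from 1 to 2 with DESeq2 and with length tilt as a covariate. Averaged over genotypes it went from 3 to 6 with DESeq2, limma voom, the tilt covariate or without the 3 libraries of lowest tilt. Over all tested genes that comparison called 2781, and 2282 to 3571 under alternatives other than leaving out 1 library. Between genotypes averaged over succinate the count among the 31 went from 0 to 1 with DESeq2, limma voom or without those 3 libraries. It went to 2 with the tilt covariate. Leaving out 1 library gave 2 to 4 for succinate in floxed hearts (4 without succinate-treated floxed replicate 4), 1 to 2 in Cre hearts (2 without untreated Cre replicate 2), 2 to 5 averaged (5 without untreated floxed replicate 2 or treated floxed replicate 4), 0 to 1 for the averaged genotypes (1 without untreated floxed replicate 4), and 0 in the other comparisons.

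Synpo2l passed in both genotypes, and Tcap in floxed hearts, under every alternative run.

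With the replicate number as a block, 2 of the 31 genes were called for succinate in Cre hearts, Synpo2l and Tcap (Tcap adjusted p = 0.0238). Whether the numbers pair the samples was not tested. Over 24 same-numbered pairs the correlation of deviations was -0.12 to 0.32, with 3 over 0.1. In 5 of the 24 the library correlated best with the one of its own number among the 4 of the other group. Without any pairing about 1 in 4 would do so. The highest values were those of replicate 1 between genotypes, 0.320 with succinate and 0.269 without it. The block moved no other count of called genes among the 31 by over 1.5 times.

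Counts over all tested genes moved more. For succinate in Cre hearts 134 became 483 with DESeq2, 374 with the tilt covariate, 46 with only the groups compared, and 22 to 183 without 1 library. In floxed hearts 1917 became 2925 with limma voom and 1018 to 2106 without 1 library. Between untreated genotypes 16 became 86 with DESeq2, 3 with only the groups compared, 7 on FPKM of at least 1 and 4 to 23 without 1 library. Between treated genotypes 101 became 307 with DESeq2, 190 with limma voom, 191 with the tilt covariate, 67 and 51 on FPKM, 44 without the 3 libraries of lowest tilt, and 44 to 134 without 1 library. For the averaged genotypes 274 became 594, 418 and 564 with DESeq2, limma voom and the tilt covariate, 176 on FPKM of at least 1 and 156 to 308 without 1 library. With library totals in place of TMM the split for succinate in floxed hearts went from 1093 higher and 824 lower to 766 and 923, and averaged from 1547 and 1234 to 1116 and 1522. The low counts of Neb and Myom3 limit what can be said of them.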
